A study of Homo sapiens with 8 samples.

Results

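The DUSP genes considered here code for MAP kinase phosphatases, and 9 of them were chosen by name: DUSP1, DUSP2, DUSP4, DUSP5, DUSP6, DUSP7, DUSP8, DUSP10 and DUSP16. Accessible regions were assigned to them where a region overlapped the gene's span or the 20 kb on either side of it. The 9 windows covered 558 kb of the human genome (build hg38, GENCODE release 44) and held 166 of 547779 union sites, which are the intervals left after overlapping or adjoining regions of all libraries were merged. The rule itself uses gene names and positions only.

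MAP kinases of the ERK, JNK and p38 families are switched on by phosphorylation of a threonine and a tyrosine in their activation loop, and the MAP kinase phosphatases remove both phosphates. DUSP1, DUSP2, DUSP4 and DUSP5 are nuclear enzymes whose genes are classically induced by growth factors and stress. DUSP6 and DUSP7 are cytoplasmic and act mainly on ERK, while DUSP8, DUSP10 and DUSP16 prefer JNK and p38, the stress kinases that UV light activates.

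Accessibility was profiled by ATAC-seq, a method that lets the Tn5 transposase cut and tag open chromatin, in U2OS cells, an osteosarcoma line. Wild-type (WT) cells and ASH1L-/- cells, which lack the histone methyltransferase ASH1L after CRISPR/Cas9 disruption and isolation of single colonies, were left without UV or were irradiated with UV-C at 20 J/m2 and collected 3 h later. Each of the 4 groups had 2 biological replicates, so all values come from 8 libraries, and the knockout stands for clonally grown cells. All libraries came from cells treated with DNase to digest dead cells before tagmentation.

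The 8 peak lists, 1 per library, held 158198 to 220783 regions. The depth of a library, recovered as its mean read pileup over the genome, was 1.39 to 5.87, and both extremes were unchallenged ASH1L-/- libraries. Median region width was 242 to 291 bp without UV and 356 to 444 bp 3 h post UV. The lists hold regions and not reads, so the disruption of ASH1L itself was not checked. As to cell identity, a promoter region was present in all 8 lists for 4 of 6 mesenchymal genes. The same held for 0 of 4 haematopoietic and 0 of 1 hepatocyte genes, but also for 3 of 4 epithelial and 2 of 2 neuronal genes. Promoter presence alone thus did not single out the mesenchymal genes. Fold enrichment, the read pileup at a summit divided by the local background of the same library, was not normalised between lists. Regions were therefore compared by percentile, which is the rank of their fold enrichment within their own list. These are bulk profiles, in which fewer cells with an open region and less opening per cell cannot be told apart.

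The promoters of DUSP1, DUSP2, DUSP7, DUSP8, DUSP10 and DUSP16 were accessible in all 8 libraries, those of DUSP4 and DUSP6 in some, and that of DUSP5 in none. A promoter was counted as accessible where a region overlapped the 1 kb on either side of any annotated transcription start site (TSS) of the gene. The 6 of 9 genes with such a region in every list compare with 67.6% of 19962 protein-coding genes, and the 1 of 9 with a region in no list with 11.8%. Where several regions qualified, the one of highest fold enrichment was taken.

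By the median percentile over the 8 libraries, DUSP10 had the strongest promoter (95.4, range 86.7 to 98.6). DUSP8 (93.7, 80.3 to 96.9), DUSP7 (87.8, 77.5 to 93.3), DUSP16 (83.3, 68.4 to 93.1), DUSP1 (70.2, 40.3 to 85.6) and DUSP2 (54.6, 27.4 to 74.4) followed. The ranges of each pair of neighbours in this order overlapped. The lowest value of DUSP10 was above the highest values of DUSP1 and DUSP2. The median percentile of the 13487 promoters found in every list was 83.9 to 92.4 in the 8 libraries, and DUSP1 and DUSP2 ranked below the median of the same library in 8 of 8, DUSP16 in 7 of 8, DUSP7 in 5 of 8, DUSP8 in 1 of 8 and DUSP10 in 0 of 8.

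**Figure D1:**
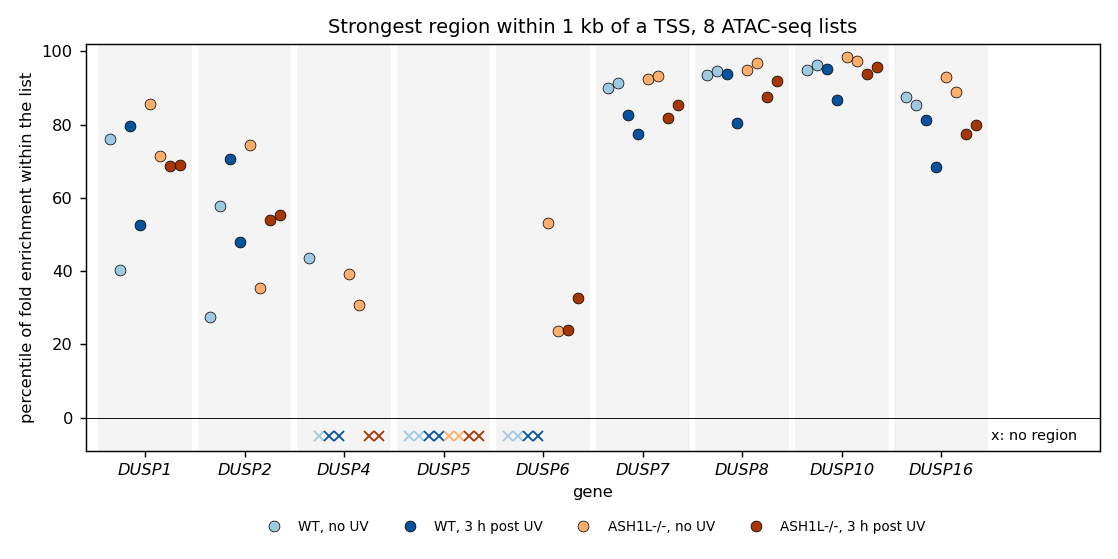
Percentile of fold enrichment (vertical axis, within each list) of the strongest region within 1 kb of a TSS for each of the 9 genes, with 1 point per library coloured by group and a cross where a library had no region. DUSP10 sits between 86.7 and 98.6 in all 8 libraries, DUSP6 has points in the 4 ASH1L-/- libraries and none in WT, and DUSP5 has none.

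DUSP1 codes for the nuclear phosphatase of p38, JNK and ERK (ENSG00000120129.6, chr5:172768096-172771195, minus strand). It had 2 separate promoter sites in all 8 lists, one at the TSS (summit 103 bp downstream) and one with its summit 1197 bp upstream. The merged interval of the upstream site reaches into the 1 kb, but its regions in the unchallenged WT libraries, although stronger than those at the TSS, did not. The strongest region within 1 kb was therefore the TSS site in 3 libraries (both unchallenged WT libraries and replicate 1 of WT post UV) and the upstream site in the other 5. The TSS site lay at percentiles 76.0 and 40.3 without UV and 79.5 and 47.5 after UV in WT, and at 74.3 and 55.5 without UV and 63.0 and 67.4 after UV in ASH1L-/- cells. The WT replicates without UV spanned most of the range of all 8 libraries, and the groups overlapped. The upstream site lay at 78.9, 78.3, 85.6 and 71.4 in the 4 unchallenged libraries and at 65.7, 52.5, 68.7 and 68.9 in the 4 UV libraries, which did not overlap. Its difference, expressed as the normal score of the rank (the rank converted to standard deviations of a normal distribution), was -0.44 ± 0.17 (SE). It did not pass the test over all 60324 sites found in every list (limma, adjusted p = 0.14).

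The 250 bases upstream of the DUSP1 TSS are shown because they are the promoter of a classical immediate-early gene and hold a full CRE. It is the RefSeq sequence (GRCh38.p14) of chr5:172771196-172771445, minus strand, with the CRE and its core (TGACGTCA and TGACGT), the E-box (CACGTG) and the Sp/KLF box (GGGCGG) in capitals on either strand.
DUSP1 promoter: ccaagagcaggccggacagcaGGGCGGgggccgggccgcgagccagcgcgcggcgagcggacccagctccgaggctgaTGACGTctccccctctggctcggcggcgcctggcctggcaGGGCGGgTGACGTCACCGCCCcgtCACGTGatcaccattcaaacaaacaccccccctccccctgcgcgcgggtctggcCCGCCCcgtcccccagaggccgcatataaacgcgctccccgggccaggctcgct
It held 1 full CRE, 1 E-box and 4 Sp/KLF boxes. Of 35116 RefSeq promoters of 300 bases, 1.85% held a CRE, 7.26% an E-box and 45% an Sp/KLF box. The TSS site of DUSP1, which covers this stretch, is the one whose percentiles overlapped between all groups. The RefSeq table held 8 promoters of 7 members and none of DUSP4 or DUSP5. DUSP8 was the only other of the 7 with a CRE, of which its 5′-end promoter held 2.

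DUSP2 codes for a nuclear phosphatase best known from immune cells (ENSG00000158050.5, chr2:96143169-96145440, minus strand) and had the weakest of the 6 promoters found in all lists. Its site next to the TSS (summit 208 bp upstream) lay at percentiles 27.4, 21.9, 65.3 and 35.5 without UV and at 33.0, 1.30, 29.3 and 16.8 with UV. A site with its summit 998 bp upstream lay at 0.650, 57.8, 74.4 and 33.2 without UV and at 70.7, 48.0, 53.9 and 55.4 with UV. The UV differences of both sites pointed in opposite directions, -0.71 ± 0.36 and 0.70 ± 0.51 in normal score (SE), and neither passed (limma, adjusted p = 0.243 and 0.41). The strongest promoter region of DUSP2 was the TSS site in 2 libraries and the upstream site in the other 6.

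DUSP4, a nuclear phosphatase of ERK and JNK on chromosome 8 (ENSG00000120875.9), had a promoter region in 3 of 8 lists, all unchallenged. They were replicate 1 of WT at percentile 43.5, at a site upstream of the 5′ end, and both ASH1L-/- replicates at 39.1 and 30.7, at a site within the gene. Replicate 2 of unchallenged WT cells had a region at that second site too, at 16.5, which did not reach into the 1 kb. No region was found within 500 bp of a TSS in any list. Other sites of the window ranked above its promoter. An intragenic site 10302 bp downstream of the 5′ end was at percentiles 82.7 to 93.2 in all 8 libraries, and flanking sites 35794 and 30177 bp downstream were at 75.4 to 88.1 and 53.1 to 81.1.

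DUSP5, the nuclear phosphatase specific for ERK (ENSG00000138166.6, chr10:110497907-110511533, plus strand), had no region within 1 kb of a TSS in any list. A region was nevertheless present within 2 kb in 8 of 8, at a site whose summit lay 1634 bp upstream of the 5′ end and which ranked at percentiles 73.7 to 89.9. DUSP5 also held the strongest site outside any member's promoter. That site, 15000 bp downstream of the 5′ end and just past the 3′ end (chr10:110512578-110513344), was at 91.4 and 94.9 without UV and 95.8 and 97.2 after UV in WT, and at 96.6 and 96.6 without UV and 94.5 and 97.4 after UV in ASH1L-/- cells. No library ranked it below 91.4, and the groups overlapped.

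DUSP6, the cytoplasmic phosphatase of ERK and a feedback target of the ERK pathway (ENSG00000139318.8, chr12:89347235-89352501, minus strand), was the gene whose promoter differed by genotype in presence. A region at its 5′ end (chr12:89352412-89352774) was in all 4 ASH1L-/- lists and in no WT list. Percentiles were 53.1 and 23.7 without UV and 23.8 and 32.6 after UV. Fold enrichments were 2.62, 2.93, 2.90 and 2.88. These regions were weak, and with -log10 q of 2.44, 1.30, 1.81 and 1.97, only the deepest library, replicate 1 of unchallenged ASH1L-/- cells, reached a q-value of 0.01. Replicate 2 without UV narrowly missed a q-value of 0.05, and the pattern was lost when only regions at or below that value were kept.

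The 250 bases upstream of the DUSP6 TSS (RefSeq, GRCh38.p14, chr12:89352502-89352751, minus strand) are shown because they lie within this ASH1L-/- region. They held none of the motifs searched and so carry no capitals.
DUSP6 promoter: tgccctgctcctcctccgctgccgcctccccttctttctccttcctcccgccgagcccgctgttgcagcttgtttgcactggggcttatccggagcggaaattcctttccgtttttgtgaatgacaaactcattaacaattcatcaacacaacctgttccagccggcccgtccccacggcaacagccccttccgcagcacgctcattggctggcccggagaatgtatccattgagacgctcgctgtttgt
The motifs searched in all member promoters and sites, on both strands, were AP-1 (TGANTCA), CRE (TGACGTCA) and its core (TGACGT), ETS (CCGGAA), E-box (CACGTG), Sp/KLF (GGGCGG), TEAD (GGAATG), RUNX (TGTGGT), the CArG box and the p53 decamer. The one remaining strong site of the DUSP6 window, 18545 bp upstream, was at 75.9 to 97.4 in all 8 libraries.

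DUSP7, the second cytoplasmic ERK phosphatase (ENSG00000164086.10, chr3:52048919-52056571, minus strand), had 1 promoter site in all 8 lists, with its summit 707 bp upstream. It ranked at 90.1 and 91.2 without UV and 82.6 and 77.5 after UV in WT, and at 92.5 and 93.3 without UV and 81.8 and 85.5 after UV in ASH1L-/- cells. Every unchallenged library was above every UV library. DUSP16, a phosphatase of JNK and p38 (ENSG00000111266.9, chr12:12473282-12562863, minus strand), showed the same separation at its TSS site. There the values were 87.4, 85.3, 93.1 and 88.8 without UV and 81.3, 68.4, 77.3 and 79.9 with UV.

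DUSP10, a phosphatase of p38 and JNK (ENSG00000143507.18, chr1:221701424-221742089, minus strand), had its strongest promoter site 162 bp upstream of the 5′ end. It ranked at 94.9, 96.4, 98.6 and 97.3 without UV and at 95.2, 86.7, 93.9 and 95.7 with UV, and these groups overlapped. Another promoter site of DUSP10, 29568 bp downstream of the 5′ end, was in 5 lists (4 UV, 1 no UV). It ranked at 51.5 to 62.3 in the UV libraries and at 32.1 in unchallenged ASH1L-/- replicate 2. At q-values of 0.01 or below it was in the 4 UV lists only. A further one, 813 bp upstream, was in 5 lists (3 UV, 2 no UV). DUSP8, also preferring p38 and JNK (ENSG00000184545.11, chr11:1554051-1572271, minus strand), was open mainly at an internal TSS, at a site 12860 bp downstream of its 5′ end. This site lay at 93.5, 94.6, 94.8 and 96.9 without UV and at 93.9, 80.3, 87.6 and 91.8 with UV, with an overlap of the groups. At the 5′ end of DUSP8, where the promoter with 2 CREs lies, a region was found in 5 of 8 lists (4 UV, 1 no UV), at percentiles of 1.80 to 39.0. Another promoter site of DUSP8, 7498 bp downstream of the 5′ end, was in 6 lists (4 UV, 2 no UV). It ranked at 42.2 and 44.4 after UV in WT and was missing from both unchallenged WT libraries. In ASH1L-/- cells it ranked at 66.0 and 68.9 without UV and 70.4 and 69.9 after UV.

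The effect of UV on promoter rank was tested with limma over all 13487 genes with a promoter region in every list, as the mean of the UV differences in WT and ASH1L-/- cells. For DUSP7 the difference in normal score was -0.48 ± 0.14 (SE; adjusted p = 0.051) and for DUSP16 -0.48 ± 0.15 (adjusted p = 0.0608). DUSP8 gave -0.42 ± 0.17 (adjusted p = 0.12) and DUSP10 -0.38 ± 0.16 (adjusted p = 0.128). DUSP1 and DUSP2, whose values mix their TSS and upstream sites between libraries, gave -0.06 ± 0.22 (adjusted p = 0.878) and 0.21 ± 0.23 (adjusted p = 0.551). Thus 0 of 6 members passed limma's adjusted threshold of 0.05, against 7.22% of all promoters, and 4 of 6 had an unadjusted p under 0.05 in the lower direction, against 27.8%. By an exact permutation test on percentiles (two-sided, 4 against 4 libraries), DUSP7 and DUSP16 reached the smallest attainable p of 0.0286, as did 20.1% of all promoters in the lower direction. Promoters as a class stood lower in the UV lists, with a median difference of -0.20 over all genes, and 77.7% of genes below 0. The median of the 6 members was -0.40.

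**Figure D2:**
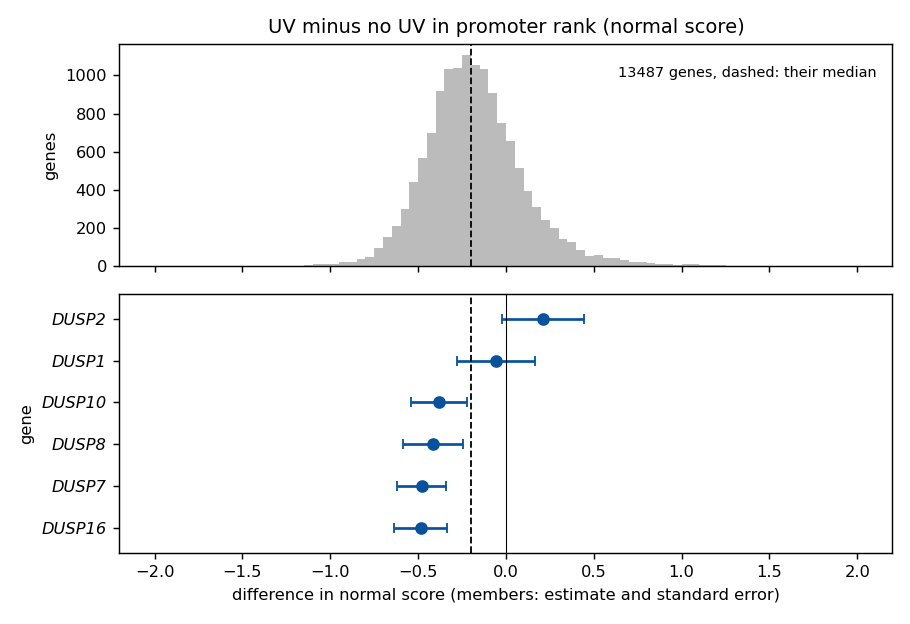
Upper panel, histogram of the UV minus no-UV difference in the normal score of promoter rank over 13487 genes; lower panel, the same difference with its standard error for the 6 DUSP genes with a promoter region in all 8 lists. The dashed line is the median of all genes, -0.20, and DUSP7, DUSP8, DUSP10 and DUSP16 lie below it while DUSP1 and DUSP2 lie above it.

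The calls stood close to the threshold. With replicate 1 of the irradiated WT cells left out, 4 of 6 promoters passed (DUSP7, DUSP8, DUSP10 and DUSP16, limma adjusted p = 0.0335, 0.0322, 0.0417 and 0.0299), as did 2447 of 13562 promoters in all. The differences of DUSP7, DUSP8, DUSP10 and DUSP16 were below 0 in every alternative run, but ranked among promoter regions only they shrank to -0.26, -0.19, -0.16 and -0.26 (limma adjusted p = 0.236, 0.486, 0.545 and 0.249). Without replicate 2 of the irradiated WT cells DUSP8 and DUSP10 gave -0.24 each. With promoters of 2 kb, DUSP1 gave -0.34 (adjusted p = 0.216). The direction for DUSP1 turned in several alternatives and that for DUSP2 when the promoter was narrowed to 500 bp (-0.71).

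No difference in promoter rank between the genotypes was detected. The ASH1L-/- minus WT differences of the 6 members were all above 0, between 0.11 and 0.32 in normal score, although those of DUSP2 and DUSP8 turned below 0 in some alternatives, and 33.2% of all promoters were below 0. The highest, that of DUSP1, compared its upstream site in every ASH1L-/- library with mostly its TSS site in WT. It was 0.088 with promoters of 500 bp and 0.035 with promoters of 2 kb. By limma, 0 of 6 passed (background 0.148%; lowest adjusted p = 0.763), 0 of 6 had an unadjusted p under 0.05 (6.87% of all promoters), and 0 of 6 separated by the exact permutation test (2.68%). No dependence of the UV difference on genotype was detected (limma, 0 of 6 called and 0 of 6 at an unadjusted p under 0.05, background 0.0% called and 2.77% unadjusted). With SEs of 0.28 to 0.47 for this contrast, differences of that size, and ones several times larger than their SE, could have gone undetected. In the UV contrast, -0.48 ± 0.14 (SE) for DUSP7 missed the adjusted threshold.

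Outside the promoters, 149 of the 166 sites lay within or beside the genes. By position, 45 were intragenic, 101 flanking and 3 at promoters of other genes. Of the 166 sites, 30 were in all 8 lists (18.1%, against 11% of all union sites) and 84 in a single list (50.6%, against 60.5%). DUSP16, with the longest window, had 51 sites of which 34 were in 1 list, and DUSP6 had 4 sites in all. DUSP1 and DUSP5 had the most sites shared by all 8 lists, 6 each.

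For each gene the strongest site outside its promoters was picked by mean percentile over the 8 lists, among sites in at least 4 lists. For DUSP1 it lay 5725 bp downstream of the 5′ end, past the gene's 3′ end (chr5:172765118-172765966), at percentiles 88.1 to 98.1. For DUSP2 it lay 3311 bp upstream (87.9 to 95.5) and for DUSP7 6146 bp upstream (88.7 to 94.7). All 3 were in every list, and the lowest values in DUSP1 and DUSP2 were above the highest promoter percentile of the same gene (85.6 and 74.4). The site of DUSP8, 37522 bp downstream, ranked at 74.2 to 95.2. The strongest such sites of DUSP10 and DUSP16 were in 7 of 8 lists. That of DUSP10, 32858 bp downstream within the gene, varied from 10.9 to 96.6. That of DUSP16, 20149 bp upstream, ranked at 43.5, 84.6 and 63.1 in 3 unchallenged libraries, was missing from unchallenged WT replicate 2, and ranked at 77.0, 81.8, 93.6 and 94.3 with UV.

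Over the 30 member sites found in all 8 lists, limma called 0 in the UV contrast (5.84% of 60324 sites were called), while 8 of 30 had an unadjusted p under 0.05 (26% of all sites). Groups did not overlap at 5 of the 30 sites, all lower with UV, against 12.3% of all sites in that direction. These were the TSS site of DUSP16, the promoter sites of DUSP7 and DUSP1 (the upstream one), an intragenic DUSP5 site and a DUSP1 site 6527 bp upstream. At the DUSP5 site, 3630 bp downstream of the 5′ end, the mean percentile was 84.8 without UV and 75 with UV. The median UV difference was -0.43 over the 8 promoter sites and -0.13 over the other 22, beside -0.09 over all sites.

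For genotype, limma called 0 of 30 sites (background 0.00166%), 1 of 30 had an unadjusted p under 0.05 (9.61% of all sites) and 0 of 30 separated by the exact permutation test (4.08%). The one site was the DUSP8 flank 37522 bp downstream of the 5′ end, with 0.44 in normal score (adjusted p = 0.483). The UV by genotype contrast gave 0 of 30 called and 0 of 30 at an unadjusted p under 0.05 (background 0.0% called and 2.91% unadjusted).

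The presence of regions was compared next. A site was said to separate the conditions where all 4 lists of one side had a region and the other 4 had none. In the DUSP windows 3 sites were found in the 4 UV lists only (0.686% of all union sites did so) and 0 in the 4 unchallenged lists only (0.0969%). Among sites present in exactly 4 lists, these were 3 of 8 in the DUSP windows and 19.01% genome-wide. No test of presence over single sites was run.

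The strongest was an intronic site of DUSP16, 52557 bp downstream of the 5′ end (chr12:12510001-12510631). Its fold enrichment after UV was 13.5 and 16.0 in WT and 8.90 and 6.33 in ASH1L-/- cells, and no region was listed without UV. In percentiles this was 94.3, 92.7, 82.1 and 75.2, so that all 4 libraries placed it in their top quartile. Both WT values were above both ASH1L-/- values, with 2 libraries per genotype. The depths of the 4 libraries were 2.53, 2.67, 2.45 and 2.81, and fold enrichment was not normalised between them. The genotype difference was not tested, and the share of UV-only sites that do likewise was not counted. The DUSP16 intron site was the only one of the 3 that also separated the conditions in the top quartile of each list, where 1086 of 75226 sites did so.

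The other UV-only sites were weak. That of DUSP5 lay in the 3′ flank, 29856 bp from the 5′ end (chr10:110527659-110528067), with fold enrichments of at most 3.12 and percentiles of 7.32, 5.32, 30.1 and 16.3 in the 4 UV libraries. That of DUSP7 lay within the gene, with its summit in an annotated exon 2966 bp from the 5′ end (chr3:52053456-52053924), at 2.85, 2.03, 2.24 and 3.52 and percentiles 29.5, 0.660, 3.05 and 50.4. Both remained UV-only when regions were limited to q-values of 0.05 or of 0.01. The regions of the UV lists were wider in general, and the part of width in these presence calls was not tested.

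**Figure D3:**
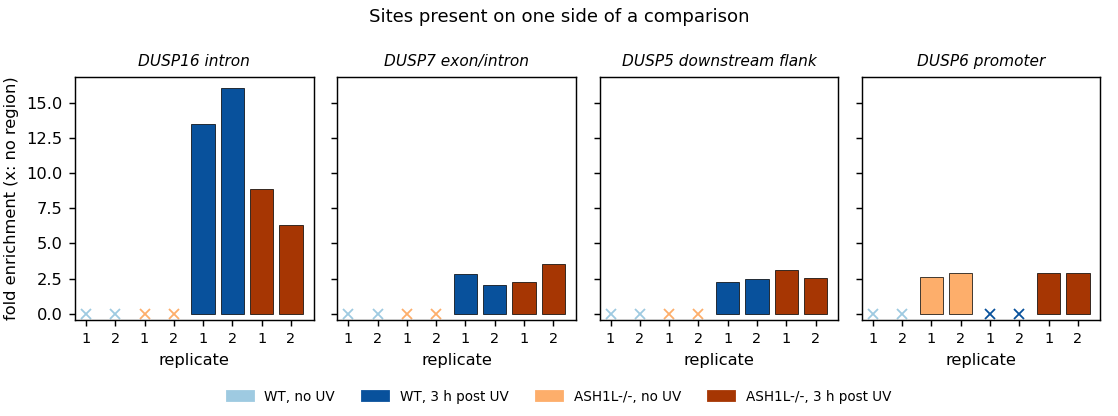
Fold enrichment (linear axis from 0, not normalised between libraries) of the 4 sites that separated the conditions by presence, with 1 bar per library and a cross at 0 where no region was listed. The DUSP16 bars reach 6.33 to 16.0, whereas the DUSP7, DUSP5 and DUSP6 bars stay at or below 3.52.

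The sequences around the DUSP16 and DUSP5 summits are shown because they underlie UV-only sites and hold the motifs marked (hg38, plus strand, chr12:12510156-12510455 and chr10:110527613-110527912). Capitals mark AP-1 motifs, bound by the FOS and JUN families, of which JUN is activated by JNK, and p53 decamers.
DUSP16 intron site: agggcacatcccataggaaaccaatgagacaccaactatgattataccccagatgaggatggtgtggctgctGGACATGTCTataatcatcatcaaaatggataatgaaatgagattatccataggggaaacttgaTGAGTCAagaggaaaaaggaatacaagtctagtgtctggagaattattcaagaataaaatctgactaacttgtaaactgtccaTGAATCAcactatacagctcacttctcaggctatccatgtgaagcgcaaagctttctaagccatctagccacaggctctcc
DUSP5 flank site: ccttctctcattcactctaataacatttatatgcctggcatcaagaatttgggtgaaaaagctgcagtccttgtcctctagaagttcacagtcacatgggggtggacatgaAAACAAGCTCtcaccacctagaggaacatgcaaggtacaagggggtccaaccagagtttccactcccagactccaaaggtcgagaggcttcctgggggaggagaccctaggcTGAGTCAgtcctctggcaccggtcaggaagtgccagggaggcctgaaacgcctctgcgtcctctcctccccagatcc
The DUSP16 site held 2 AP-1 motifs (TGAGTCA and TGAATCA) and 1 p53 decamer, and the DUSP5 site 1 AP-1 motif (TGAGTCA) and 1 p53 decamer. The DUSP7 site, the third of the UV-only sites, held 0 of either motif and is not shown. AP-1 was present in 18.7% of all union sites, in 33% of those in exactly 4 lists and in 58.3% of the 3757 UV-only sites of the genome. For the p53 decamer the shares were 8.61%, 9.3% and 9.26%, each counted in the 300 bases around the summit.

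Among the 30 member sites in all 8 lists, AP-1 was found in 11 (36.7%), beside 39% of all sites found in 8 lists, and the 11 lay among the 22 sites outside promoters. The Sp/KLF box was found in 12 (40%), beside 21.8%, of which 6 were among the 8 promoter sites. These are matches of letters and do not show binding.

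**Figure D4:**
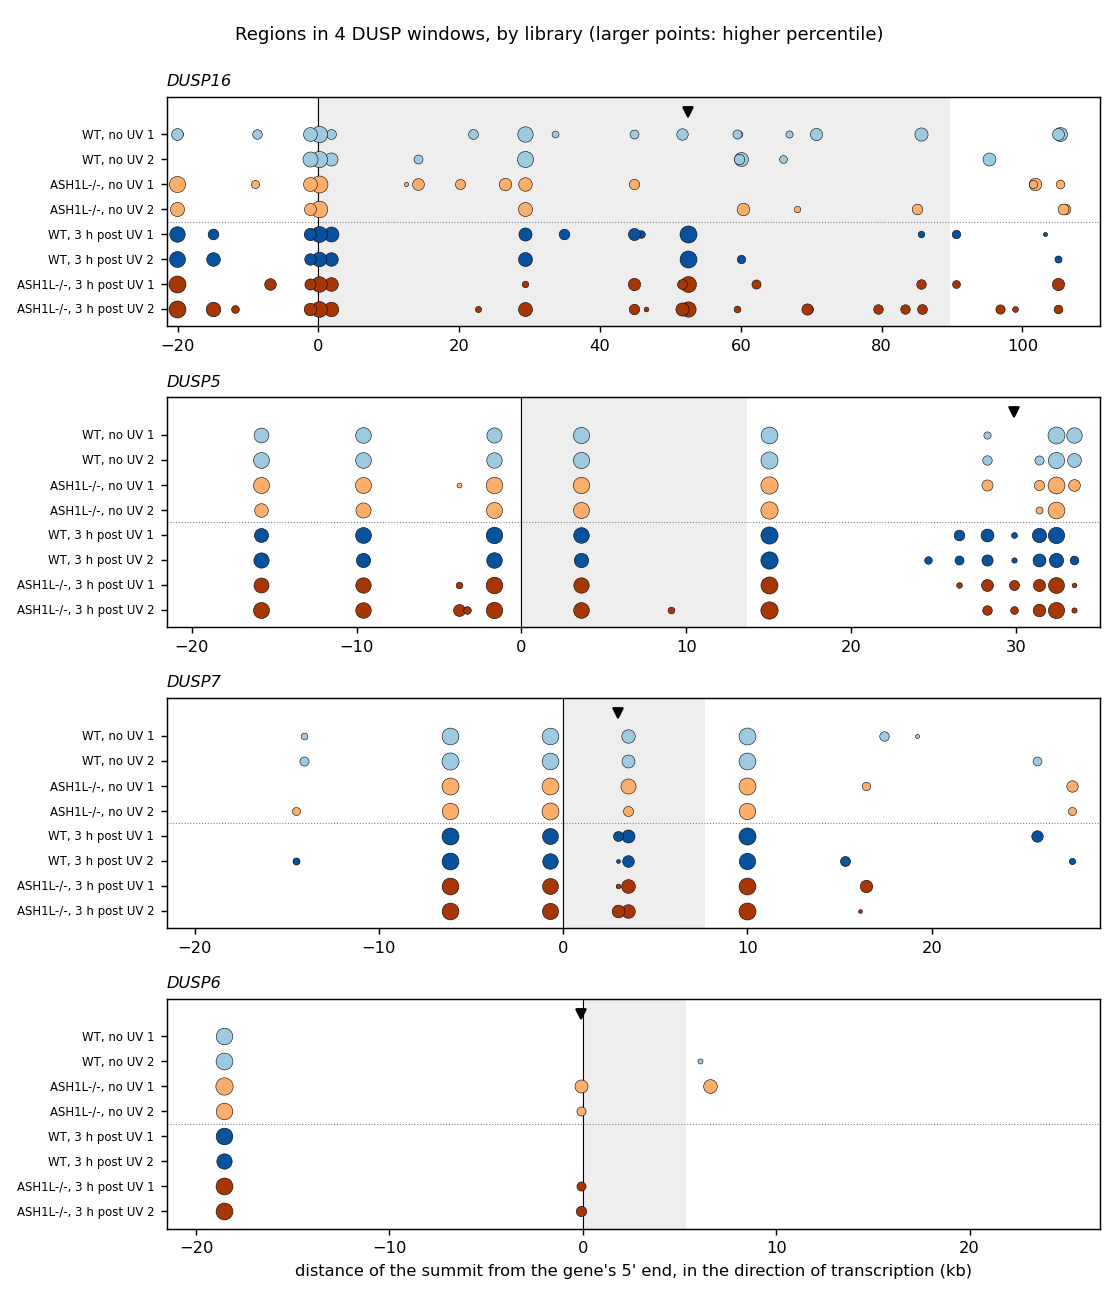
Accessible regions in the windows of DUSP16, DUSP5, DUSP7 and DUSP6, by distance of the summit from the gene's 5′ end in kb (horizontal axis; gene span shaded) and by library (rows; unchallenged above the dotted line, 3 h post UV below it), with point size following the percentile. Triangles mark the sites that separated the conditions; the DUSP16 site at 52.6 kb has large points in all 4 UV rows, and the DUSP6 promoter has points in the 4 ASH1L-/- rows.

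By genotype, 1 site was found in the 4 ASH1L-/- lists only (0.187% of all union sites), the DUSP6 promoter described above, and 0 in the 4 WT lists only (0.0769%). At the level of promoters, 0.225% of protein-coding genes had a region in all 4 ASH1L-/- lists and in no WT list.

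The number of regions per window separated UV from no UV for DUSP5 and DUSP4. DUSP5 had 10, 9, 10 and 8 regions without UV and 12, 13, 13 and 14 with UV. DUSP4 had 7, 9, 7 and 7 without UV and 5, 4, 4 and 5 with UV. In neither gene did the groups overlap, and both reached the smallest p of the exact permutation test (p = 0.0286, two-sided), as did 1.37% of all genes upward and 1.1% downward. After adjustment over 19962 genes neither passed (adjusted p = 1). DUSP5 also separated in bases covered and among regions with q-values of 0.05 or below, where DUSP4 did not. In either direction 2231 and 647 of the 19962 genes did so. With windows of 10 or 50 kb DUSP4 separated and DUSP5 did not, as did 464 and 519 genes in either direction. In the 3′ flank of DUSP5, the sites 28235, 29856 and 31408 bp from the 5′ end were in all 4 UV lists and in 3, 0 and 3 of the unchallenged lists. Other sites of this flank ranked lower with UV. At 32443 bp the mean percentile was 90.8 without UV and 79.6 with UV. The site at 33501 bp lay at 77.0, 59.7 and 42.4 in 3 unchallenged lists and at 21.6, 3.23 and 4.99 in 3 UV lists.

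Between genotypes, only DUSP1 separated, with 7 regions in each of the 4 WT libraries and 9, 8, 9 and 11 in ASH1L-/- cells (p = 0.0286, exact permutation test, two-sided; adjusted p = 0.733; 1.92% of all genes upward). Per 100000 regions of a list this separation was lost. The other 6 genes had overlapping numbers in both comparisons. DUSP16 had the widest spread, from 9 to 24 regions.

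**Figure D5:**
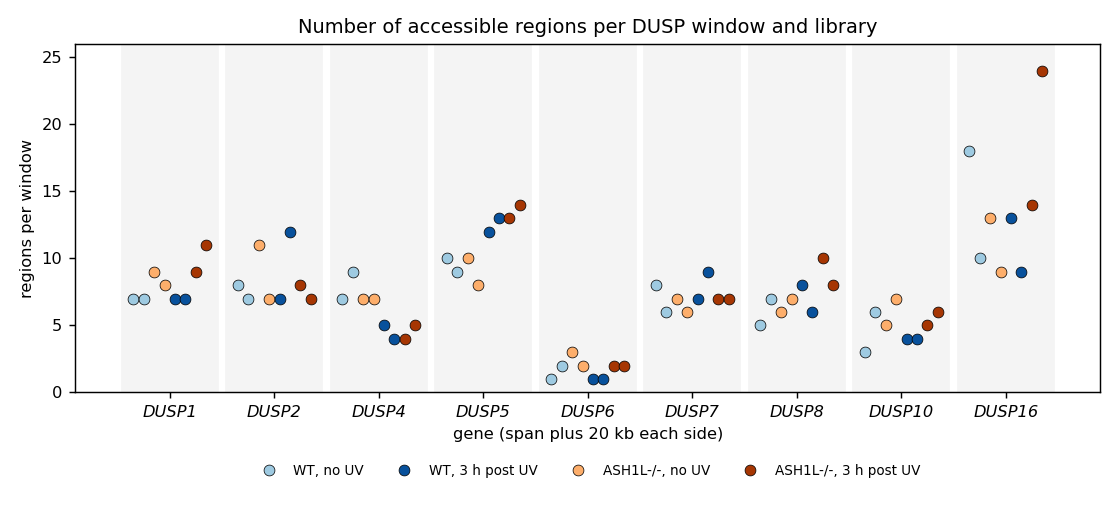
Number of accessible regions in the window of each gene (vertical axis), with 1 point per library, unchallenged libraries to the left and UV libraries to the right within each gene. DUSP5 moves from 8 to 10 regions without UV to 12 to 14 with UV, and DUSP4 from 7 to 9 down to 4 and 5.

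Promoters of the kinases on which these phosphatases act, and of other parts of the same pathway, were read in the same fit. Of 43 such genes, 38 had a promoter region in all 8 lists. With UV, 3 of 38 were lower (6.1% of all promoters) and 2 of 38 higher (1.12%), and 20 of 38 had an unadjusted p under 0.05 (31.2% of all promoters). The 3 lower ones were all of the ERK arm, of which 9 of 9 were tested. They were MAP2K1 and MAP2K2, the kinases of ERK (-0.63 ± 0.15 and -0.68 ± 0.19 in normal score, SE; limma adjusted p = 0.0303 and 0.0465), and MAPK7, the kinase ERK5 (-0.71 ± 0.14; adjusted p = 0.0193). The higher ones were the upstream stress kinases MAP3K4 (0.53 ± 0.14; adjusted p = 0.0387) and MAP3K20, which senses stalled ribosomes (0.61 ± 0.15; adjusted p = 0.0358). Each of these 5 calls was lost in some alternatives (highest adjusted p = 0.0942 to 0.684). MAP2K1 was called in 8 of 18 alternatives, MAP2K2 in 7 of 18, MAPK7 in 13 of 18, MAP3K4 in 10 of 18 and MAP3K20 in 10 of 17, and the direction of MAP3K4 turned in 1. Of the JNK arm 0 of 4 tested promoters were called, of the p38 arm 0 of 5, of downstream kinases 0 of 8 and of the Sprouty and SPRED feedback inhibitors 0 of 4. The ERK arm was not the lowest class by median UV difference, with -0.315 beside -0.349 for the feedback inhibitors. The medians were -0.274 in the JNK arm, -0.259 in the MAP3K genes, -0.192 in the p38 arm and -0.0482 in downstream kinases. The remaining MAP kinase phosphatase, DUSP9, had a promoter region in 2 of 8 lists. For genotype, limma called 0 of 38 (0.148% of all promoters), with 4 of 38 at an unadjusted p under 0.05 (6.87%), and for UV by genotype 0 of 38 (0.0%), with 2 of 38 (2.77%).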

How the data were processed

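Per the labels, the authors trimmed reads with cutadapt 1.9.1, aligned them with Bowtie2 2.4.5 to hg38 and called peaks in each library with MACS2 2.2.7.1, with no pooling of replicates. The deposited values are the caller's fold enrichment, a ratio of pileup to local background, and -log10 p-values and q-values. The authors' score column was not used. The lists reached down to a -log10 p of 2 in every library.

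A region was a distinct interval, with the highest fold enrichment of its records. Rank within a list was turned into a normal score and fitted with limma 3.58.1 (R 4.3.3), with 4 group means and no covariate, over all promoters or sites found in all 8 lists, with Benjamini-Hochberg adjustment. Normal scores, not fold changes, are given as differences. On simulated data the promoter fit recovered known shifts. These were all larger than the differences of the DUSP promoters, so recovery of shifts of that smaller size was not tested. Region numbers and percentiles were compared by exact permutation tests over 70 assignments. Depth was solved from fold enrichment and p-value (all of 3000 pairs per library). It gives no read counts, so no counting intervals could be given. Sequences and positions came from hg38, GENCODE release 44 and RefSeq.

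All 9 members were named. Named sites were those that separated conditions or were called, and the strongest site per gene outside its promoters in at least 4 lists. Further sites were named after their values were seen. The members and lists were chosen with earlier results of these data known. Alternatives covered q-value limits, scale, promoter and window size, site definition, depth, the replicate block and each library left out.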

Additional observations from a re-analysis of the deposited data

How the results depend on the processing

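Of 87 counts recomputed under settings other than the removal of 1 library, 63 stayed within 1.5 times the reported count and 24 did not. For promoters and UV, where 0 was reported, limma called 1 with promoters of 2 kb (DUSP7), 1 with log2 depth as a covariate (DUSP16), 1 with the replicate block (DUSP7) and 2 with the spread fitted as a function of mean rank, a setting chosen after seeing the data. The exact permutation test called 2. For sites in all 8 lists and UV, against 0 reported, the counts were 2 of 30 with log2 fold enrichment (9012 of 60324 sites in all), 2 of 55 with a 50 kb window (3520 in all), 1 of 30 with the spread as a function of mean rank (6399 in all) and 5 of 30 with the exact permutation test (11018 in all). Sites separating UV, 3 as reported, numbered 1 in the top quartile and 6 with a 50 kb window. At q-values of 0.01 or below they numbered 4, with the internal promoter site of DUSP10 added. The site separating genotypes was lost, to 0, at q-values of 0.05 or below and in the top quartile. At 0.01 or below the count was 1 again, at a DUSP2 site in place of DUSP6. Windows with a UV change in region number, 2 as reported, numbered 1 at both q-value limits, with windows of 10 and of 50 kb, and in bases covered. The DUSP1 window that separated genotypes was lost, to 0, at both q-value limits, with 10 and 50 kb windows and per 100000 regions, and in bases covered DUSP6 was called in its place. With the replicate block the count was 2 (DUSP1 and DUSP10), at a smallest attainable p of 0.125, which cannot pass 0.05. The causes of these changes were not tested.

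With 1 library left out, the count ranged from 0 to 4 for promoters and UV, from 0 to 2 for shared sites and UV, from 3 to 4 and from 1 to 4 for sites separating UV and genotypes, and from 2 to 3 and from 0 to 2 for region numbers by UV and genotype. For promoters the 4 came with replicate 1 of the irradiated WT cells left out, and for sites separating genotypes without unchallenged ASH1L-/- replicate 2. Shared sites gave 2 without unchallenged WT replicate 2 and 1 without ASH1L-/- replicate 2 post UV. Genotype sites gave 2 without unchallenged WT replicate 2 or ASH1L-/- replicate 1 post UV. A single library left in a group was assumed to vary like the other groups. The DUSP1 window was not called without any 1 of the 4 WT libraries, although its groups still did not overlap, and was called without any 1 of the 4 ASH1L-/- libraries. Without unchallenged WT replicate 2, the windows of DUSP6 and DUSP10 were called instead. Genotype and UV by genotype counts for rank stayed at 0 throughout.

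The UV difference of DUSP1 was reversed at q-values of 0.05 (0.10) and 0.01 (0.37) or below, with log2 fold enrichment (0.15), with rank among promoter regions (0.13) and with 500 bp promoters (0.073), and between -0.29 and 0.18 with 1 library left out. That of DUSP2 was reversed with 500 bp promoters (-0.71) and ranged from -0.044 to 0.47 with 1 library left out. Its genotype difference turned to -0.019 with log2 depth as a covariate and ranged from -0.15 to 0.36. The genotype difference of DUSP8 ranged from -0.041 to 0.30. Whether replicate numbers mark shared batches is not given by the labels. Deviations of same-numbered libraries correlated at -0.11 to 0.14 over 60324 sites, which cannot settle it. The replicate block, with which DUSP7 passed for UV (limma adjusted p = 0.0479), pairs libraries by number alone. Depth was uneven, and a weak region that misses a shallow list may have been below detection there.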
